A study of Mus musculus with 15 samples.

Results

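The genes described here build nucleotides and move the folate-bound carbon units that this synthesis uses. They are 35 mouse genes chosen by name, and each is represented by the array probe whose accession maps to its symbol, taking the brightest probe by mean red signal where a gene had several, as 10 genes did. All 35 had a probe, all 35 passed the filter on dim probes, and they are 35 of 23938 features tested. The probe that stands for each gene was well above background on all 15 arrays, so none was kept through a single group.

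Cells that are about to copy their DNA need purine and pyrimidine nucleotides in bulk. Purine rings are assembled stepwise on a ribose phosphate, pyrimidine rings are made first and attached later, and ribonucleotide reductase turns the products into the deoxy forms that DNA polymerase uses. Tetrahydrofolate carries the carbon units that enter the purine ring and that turn deoxyuridylate into thymidylate. Salvage enzymes recover bases and nucleosides that are already made. In the intestine the dividing cells sit in the crypts, epithelial pits where Wnt signals maintain stem and progenitor cells and Notch signals hold progenitors back from becoming secretory cells.

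RNA came from small intestinal crypts, taken 24 h after treatment from mice that were 6 to 8 weeks old. The control group received an IgG control antibody, the N1N2 group a single dose of blocking antibodies against Notch 1 and Notch 2, and the N1N2 plus Lrp6 group the same Notch antibodies with 30 mg/kg of anti-Lrp6 antibody, which targets a Wnt co-receptor. For the Notch antibodies the labels state a strength of 1 mg/mL and no amount per mouse. Each group had 5 arrays, described as biological replicates; the sources used here do not say whether RNA of several mice was pooled for an array. Strain and sex are not stated either, no group received the Lrp6 antibody alone, and all mice received some antibody.

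Crypt RNA was labelled red and hybridised together with a green-labelled universal mouse reference, with no dye swap. Every level below is therefore a log2 ratio of crypt over reference, and every change is a difference of group means on that log2 scale with the SE of 1 limma fit over the 15 arrays. Ratios of different genes are not compared as levels, since each depends on its probe and on the reference. P-values are two-sided, from limma, with Benjamini-Hochberg adjustment across the 23938 features. A gene is said to have risen or fallen only when the adjusted p was under 0.05.

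Between 57.2% and 79.8% of spots were well above background in red, with no saturated spots, and 4 of the 5 N1N2 plus Lrp6 arrays lay lowest, at 57.2% to 66.9%. Markers of crypt epithelium (Epcam, Cdh1, Vil1 and 7 others) averaged 5.09 to 5.20 on the control arrays, 5.04 to 5.58 on the N1N2 arrays and 4.84 to 5.45 on the N1N2 plus Lrp6 arrays. Genes of cycling cells averaged -1.40 to -0.96, -1.77 to -1.50 and -1.09 to -0.65 in the same order (23 of 25 tested, Aurkb and Ccne2 not above background), so the N1N2 arrays lay below both other groups without overlap. Of those 23 genes, 17 fell in N1N2 against control and 19 rose in N1N2 plus Lrp6 against N1N2. Lung genes, which do not belong to this tissue, averaged -0.37 to 0.09, -0.41 to -0.20 and 0.37 to 1.33 (7 of 10 tested, Cldn18 above background in no group, Sftpb and Sftpa1 only in N1N2 plus Lrp6). Stromal and muscle genes (15) averaged -2.88 to -2.20, -2.99 to -2.67 and -3.74 to -3.04, with Pdgfra not above background in N1N2 plus Lrp6. Goblet cell genes (7) averaged 6.32 to 6.60, 6.89 to 7.58 and 6.28 to 7.29, enteroendocrine genes (9) 3.43 to 3.85, 4.25 to 4.61 and 3.96 to 4.44, and immune genes (12 of 13) 2.37 to 2.75, 2.11 to 2.60 and 2.11 to 2.41. The part of these shifts in the results below was not tested. In whole crypts, fewer cells of a type and less RNA per cell cannot be told apart.

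After Notch 1 and Notch 2 were blocked, 15 of the 35 nucleotide genes fell, 1 rose (the nucleoside transporter gene Slc29a1) and 19 did not pass the test. Over all features 5.15% fell and 6.57% rose. The median change of the nucleotide genes was -0.39, with a range from -1.20 to 0.84, against a median of 0 over all features. In 12 of them every N1N2 array lay below every control array, and in 1 every N1N2 array lay above, against 5.91% and 6.14% of all features. The declines were spread over the folate, deoxynucleotide, pyrimidine and purine lists. None of the 5 genes listed under salvage, transport and nucleoside diphosphate kinases fell. Tk1, which fell, also serves salvage but was listed with the deoxynucleotide genes, so this is no split between synthesis and salvage. The count of 15 depended on single arrays: it was 9 without control replicate 1, 8 without control replicate 2, 7 without control replicate 5, 9 without N1N2 replicate 2 and 8 without N1N2 replicate 4. Over all features 831, 607, 592, 985 and 674 fell in the same order, in place of 1233. With all arrays scaled to the same spread, 2 rose and 7 fell: the calls of Dut, Dhodh, Umps, Ctps, Prps1, Gart, Gmps and Impdh2 were lost. Median centring in place of loess ended the same 8 calls and those of Tk1 and Slc29a1, so that 0 rose and 6 fell. Of all features, 1294 rose and 1098 fell with scaled arrays and 573 and 679 with median centring, in place of 1573 and 1233. Array omissions named below are those of the 10 arrays of the compared groups.

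Adding the Lrp6 antibody to the Notch antibodies went with higher levels: 20 of the 35 rose, 2 fell (Gldc and Slc29a1) and 13 did not pass. Over all features 9.45% rose and 7.26% fell in this comparison. The median change was 0.55, with a range from -0.40 to 1.41, again against a median of 0 over all features. In 14 genes every N1N2 plus Lrp6 array lay above every N1N2 array, and in none below, against 6.13% and 4.02% of all features. The count of 2 that fell was 0 without N1N2 replicate 2 or 4 and 1 without N1N2 replicate 3 or 5 or N1N2 plus Lrp6 replicate 1, 4 or 5. Over all features 1131 fell without N1N2 replicate 2 and 1079 without N1N2 replicate 4, in place of 1738. Under 12 other processing settings, the calls of Gart and Adsl were each lost in 8, those of Dck and Slc29a1 in 6 and that of Nme2 in 3. This comparison and the one before it share the 5 N1N2 arrays, so a low value on those arrays lowers the first change and raises the second, and the changes are given side by side below only as values.

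Against the control group, none of the 35 genes rose or fell in N1N2 plus Lrp6 by the limma test, where 0.221% of all features rose and 0.155% fell. At an unadjusted p under 0.05 there were 9, of which 8 were above 0 and 1, Gldc, below, where 7.68% of all features were above and 5.33% below. The median change was 0.10, the range ran from -0.24 to 0.46, and 28 of the 35 changes were above 0. In 2 genes, Rrm1 and Umps, every N1N2 plus Lrp6 array lay above every control array, against 1.51% of all features. Without N1N2 plus Lrp6 replicate 5, Slc29a1 passed (change 0.56, adjusted p = 0.0311), where 232 of all features rose in place of 53.

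**Figure D1:**
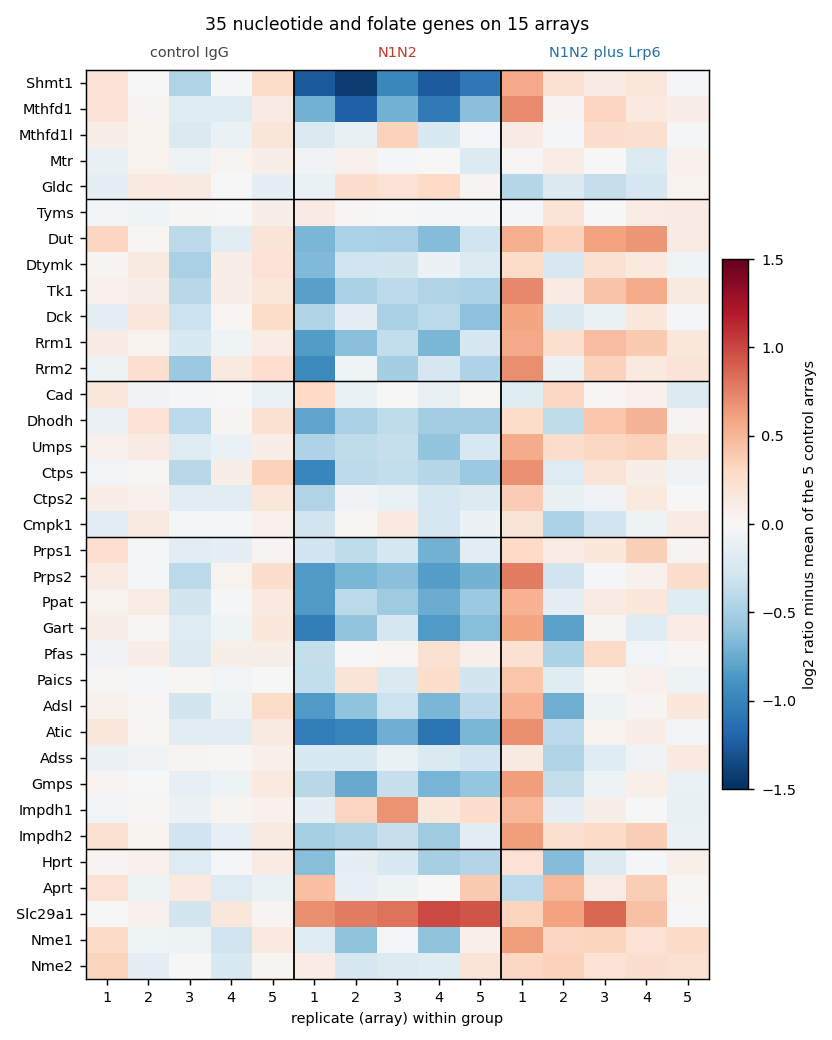
Each row is 1 of the 35 genes and each column 1 of the 15 arrays; the colour is the log2 ratio of crypt over reference minus the mean of the 5 control arrays for that gene, from blue (lower) to red (higher), and black lines separate the roles and the groups. The N1N2 columns are blue over most rows of the folate, deoxynucleotide, pyrimidine and purine blocks, while Slc29a1 is red there and Tyms and Mtr stay near white.

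The arrays lay on 6 slides, and slide and treatment overlap only in part. Control arrays 4 and 5 shared slide 2 with N1N2 arrays 1 and 2, which allows a comparison within a slide with 2 arrays per group. There, all 16 genes called over the 10 arrays kept their direction, and 14 of the 16 changes were larger in size than over all arrays. These 4 arrays are among the 10 that gave the calls, and genes whose groups did not overlap could not change direction there. The kept direction is therefore no separate support, and the same counts over all features are not given. None of the 16 genes passed on those 4 arrays alone, where limma called 3 of all features. With slide as a fixed block in the fit of 15 arrays, Shmt1 (-1.47, adjusted p = 0.0128) was the 1 gene that fell and none rose. No slide held N1N2 plus Lrp6 arrays together with another group, so a fixed block could not be fitted there. With slide as a random block (estimated correlation -0.182), 22 genes rose and 2 fell in N1N2 plus Lrp6 against N1N2, where 15.5% of all features rose and 13.9% fell. Against control 8 of the genes rose and 1 fell in that fit, given with each role below. It called many more of all features there as well: 7.29% rose and 4.89% fell, that is 1745 and 1171 in place of 53 and 37. The estimated correlation is negative, so by that estimate arrays of a slide were no more alike than others of their group. Slide and treatment cannot be told apart in this comparison, and the passes below are given only as values of that fit.

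Promoters were read from RefSeq (GRCm38.p6), 250 bases before to 50 after each annotated start, and 33 of the 35 genes had at least 1, with 46 promoters in all. Dhodh and Pfas were not in the table. Letters were searched on both strands: CACGTG (the E-box bound by Myc and related factors), TTTCCCGC, TTTCGCGC, TTTGCCGC or TTTGGCGC (forms of the E2F site), CCAAT (bound by NF-Y) and GGGCGG (the GC box bound by Sp factors). In Ppat an E2F match and a GC box match share bases. CACGTG stood in 17.4% of the 46 promoters, against 7.8% of 21263 promoters of protein-coding genes and 7.2% of all 32851. The E2F letters stood in 4.3%, against 2.9% and 2.3%, CCAAT in 30.4%, against 38.2% and 37.4%, and GGGCGG in 71.7%, against 46.2% and 35.7%. Of the 7 genes with CACGTG, 2 fell in N1N2 against control, and of the 26 without it 12 fell. Of the 14 with CCAAT 7 fell, and of the 19 without it 7 fell. Ppat and Prps2, the 2 genes with E2F letters, both fell and both rose in the next comparison. Of the 31 without these letters 12 fell and 17 rose, and 2 genes are too few for a comparison. Of the 28 with GGGCGG 12 fell, and of the 5 without it 2 fell. A match describes these letters only, and no binding was measured.

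Among the 5 folate genes, Shmt1 and Mthfd1, both cytosolic, fell after Notch blockade and rose when the Lrp6 antibody was added, Gldc fell in the second comparison, and Mthfd1l and Mtr passed in neither. Shmt1, which passes a carbon unit from serine to tetrahydrofolate in the cytosol, gave 0.33, 0.12, -0.33, 0.09 and 0.40 on the control arrays. It gave -1.14, -1.30, -0.85, -1.13 and -0.95 on the N1N2 arrays and 0.69, 0.35, 0.24, 0.29 and 0.09 on the N1N2 plus Lrp6 arrays. Every N1N2 value was below every value of both other groups, which overlapped each other. Shmt1 fell by 1.20 (SE 0.14, adjusted p = 5.96e-05), a 2.29-fold difference and the largest decline among the 35 genes by their brightest probes. Within the shared slide its change was -1.47, which did not pass (adjusted p = 0.101). It was higher by 1.41 in N1N2 plus Lrp6 than in N1N2 (SE 0.14, adjusted p = 0.000181), also the largest rise among those probes. A dimmer second probe of Shmt1, also well above background on all arrays, moved the same way but less, by -0.39 and 0.38.

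Mthfd1, the cytosolic enzyme that interconverts the folate-bound carbon units and loads formate, gave 0.11, -0.06, -0.28, -0.28 and 0.02 in the control group. The N1N2 arrays gave -0.81, -1.31, -0.81, -1.16 and -0.73, and the N1N2 plus Lrp6 arrays 0.61, -0.06, 0.23, 0.05 and 0.00. The N1N2 group again lay wholly below both others. Mthfd1 fell by 0.87 (SE 0.14, adjusted p = 0.00121) and was higher by 1.13 in N1N2 plus Lrp6 than in N1N2 (SE 0.14, adjusted p = 0.000416). The calls of Shmt1 and Mthfd1 in both comparisons held whichever single array was left out. Within the shared slide the change of Mthfd1 was -0.93, which did not pass (adjusted p = 0.163), nor did Mthfd1 pass with slide as a fixed block (adjusted p = 0.170).

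Mthfd1l, the mitochondrial enzyme that releases formate for the cytosol, gave -3.09, -3.14, -3.41, -3.29 and -3.01 in control. It gave -3.40, -3.30, -2.84, -3.42 and -3.22 in N1N2 and -3.07, -3.20, -2.93, -2.95 and -3.21 in N1N2 plus Lrp6. The 3 groups overlapped, and Mthfd1l did not pass in any comparison. Methionine synthase, Mtr, averaged -0.78 ± 0.09 (SD, n = 5), -0.82 ± 0.10 and -0.78 ± 0.12, with changes of at most 0.05 in size; its probe was the dimmest of the 35, with a mean red signal of 160 against a median local background of 28. Gldc, the glycine decarboxylase of the mitochondrial glycine cleavage system, averaged -0.50 ± 0.14 in control, -0.35 ± 0.17 in N1N2 and -0.74 ± 0.18 in N1N2 plus Lrp6. The change against control was 0.15 after Notch blockade (adjusted p = 0.408), and Gldc fell by 0.39 from N1N2 to N1N2 plus Lrp6 (SE 0.10, adjusted p = 0.0181), with overlapping groups. That call was lost without N1N2 replicate 2 or 4, where the adjusted p reached 0.0556, and with median centring. With slide as a random block, where slide and treatment cannot be told apart, Gldc also passed below control (-0.27, adjusted p = 0.0372).

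The Shmt1 promoter is shown because its brightest probe changed most among the 35. It holds a CCAAT box on the reverse strand, in capitals, which begins at base -47 from the start site. The stretch shown lies at chr11:60811288-60811332 (GRCm38.p6, minus strand) and ends 23 bases before the start site.

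Shmt1: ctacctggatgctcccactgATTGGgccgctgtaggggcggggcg

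Of the 7 genes that make deoxynucleotides and thymidylate, Rrm1, Tk1 and Dut fell after Notch blockade, and these 3 together with Dck and Rrm2 rose when the Lrp6 antibody was added. Rrm1, the large subunit of ribonucleotide reductase, gave -1.75, -1.82, -2.10, -1.94 and -1.77 in control. It gave -2.71, -2.50, -2.25, -2.56 and -2.13 in N1N2 and -1.31, -1.64, -1.41, -1.48 and -1.71 in N1N2 plus Lrp6. All 3 groups were apart, N1N2 lowest and N1N2 plus Lrp6 highest. Rrm1 fell by 0.55 (SE 0.11, adjusted p = 0.00631) and was then higher by 0.92 (SE 0.11, adjusted p = 0.000416), both whichever array was left out. The change within the shared slide, -0.75, did not pass (adjusted p = 0.141). Against control the difference was 0.37 (SE 0.11, adjusted p = 0.193), which did not pass, and 0.42 with slide as a random block (adjusted p = 0.00753).

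Rrm2, the small subunit that carries the radical, averaged -2.29 ± 0.34, -2.74 ± 0.33 and -2.03 ± 0.29 (SD, n = 5 each), and its groups overlapped. The change of -0.45 after Notch blockade did not pass (SE 0.19, adjusted p = 0.136), while the rise of 0.70 with the Lrp6 antibody did (SE 0.19, adjusted p = 0.0171). The promoters of both reductase subunits are shown because they encode one enzyme and both hold CCAAT, in capitals. The Rrm1 stretch lies at chr7:102441584-102441674 (GRCm38.p6, plus strand) and the Rrm2 stretch at chr12:24708184-24708228 (plus strand).

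Rrm1: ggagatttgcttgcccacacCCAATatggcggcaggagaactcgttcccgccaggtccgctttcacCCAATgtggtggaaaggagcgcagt

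Rrm2: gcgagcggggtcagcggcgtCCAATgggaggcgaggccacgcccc

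Tk1, the cytosolic thymidine kinase of the S phase, gave -0.74, -0.72, -1.22, -0.71 and -0.64 in control. Its values were -1.62, -1.29, -1.20, -1.26 and -1.28 in N1N2 and -0.08, -0.68, -0.38, -0.25 and -0.67 in N1N2 plus Lrp6. Control replicate 3 reached into the N1N2 range, and otherwise the N1N2 arrays were lowest. Tk1 fell by 0.52 (SE 0.13, adjusted p = 0.0207), a call lost without control replicate 2 or 5 (adjusted p up to 0.0608) and with median centring. The change within the shared slide was -0.78, which did not pass (adjusted p = 0.146). It was higher by 0.92 with the Lrp6 antibody (SE 0.13, adjusted p = 0.000721), with no overlap.

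Dut, which removes dUTP and so keeps uracil out of DNA, gave -2.01, -2.31, -2.73, -2.49 and -2.14 in control. The N1N2 arrays gave -3.02, -2.81, -2.82, -2.99 and -2.64 and the N1N2 plus Lrp6 arrays -1.79, -1.99, -1.73, -1.67 and -2.21. Control and N1N2 overlapped, and N1N2 plus Lrp6 lay above all N1N2 arrays. Dut fell by 0.52 (SE 0.14, adjusted p = 0.0222), which was lost without control replicate 1, 2 or 5 or N1N2 replicate 4 (adjusted p up to 0.0659). The rise with the Lrp6 antibody was 0.98 (SE 0.14, adjusted p = 0.000556), with no overlap. Against control it was 0.46 (adjusted p = 0.176), and with slide as a random block 0.51 (adjusted p = 0.00621), as for Tk1 (0.45, adjusted p = 0.0101).

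Dck, the deoxycytidine kinase, changed by -0.42 (adjusted p = 0.0794) and then rose by 0.50 (SE 0.15, adjusted p = 0.0304), a call that 6 of the 10 single-array omissions removed: N1N2 replicates 1, 3, 4 and 5 and N1N2 plus Lrp6 replicates 1 and 4 (adjusted p up to 0.0702). Thymidylate kinase, Dtymk, changed by -0.31 (adjusted p = 0.180) and 0.38 (adjusted p = 0.0801) by its brightest probe. A second Dtymk probe, for another accession and also above background on all arrays, changed by -0.56 and 0.93, and with the mean of both probes Dtymk passed in both comparisons (-0.43, adjusted p = 0.0436, and 0.66, adjusted p = 0.00427).

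Tyms, thymidylate synthase, which needs a folate carbon unit to make dTMP, did not pass in any comparison. It gave -0.24, -0.26, -0.18, -0.20 and -0.11 in control, -0.08, -0.18, -0.20, -0.23 and -0.22 in N1N2 and -0.21, 0.00, -0.19, -0.09 and -0.07 in N1N2 plus Lrp6. The groups overlapped throughout, with changes of 0.02 (SE 0.06, adjusted p = 0.909) and 0.07 (SE 0.06, adjusted p = 0.524). Its probe was among the dimmer ones, with a mean red signal of 247, as was that of Prps2 (226), which passed in both comparisons. The promoter is shown because it holds CACGTG, in capitals, while the gene did not pass. The stretch shown lies at chr5:30073661-30073706 (GRCm38.p6, minus strand).

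Tyms: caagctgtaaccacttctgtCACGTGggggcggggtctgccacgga

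**Figure D2:**
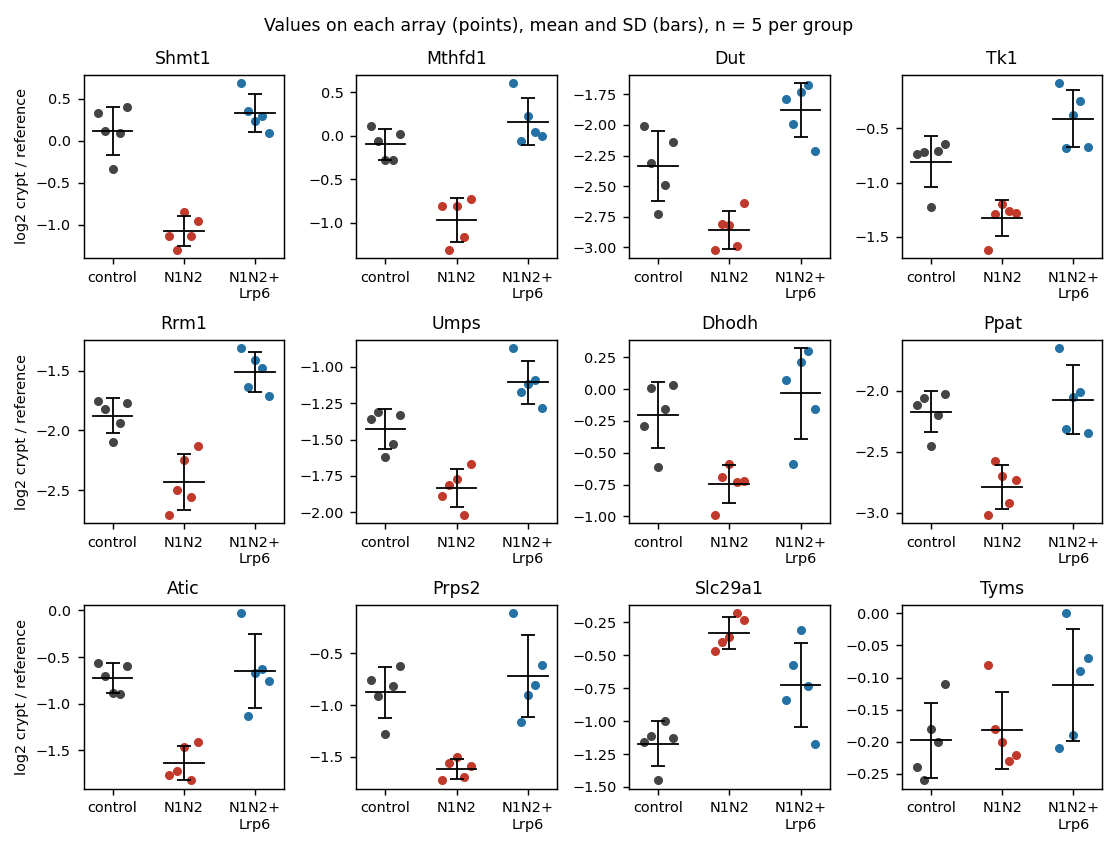
Each panel shows 1 gene, with the log2 ratio of crypt over reference on the vertical axis (its own scale), 1 point per array and bars for the mean and SD of 5 arrays in control (black), N1N2 (red) and N1N2 plus Lrp6 (blue). The N1N2 points of Shmt1, Mthfd1, Rrm1, Umps, Ppat, Atic and Prps2 lie below all other points, those of Slc29a1 lie above all control points, and those of Tyms overlap both other groups.

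In the pyrimidine pathway, Umps, Dhodh and Ctps fell and then were higher with the Lrp6 antibody, while Cad, Ctps2 and Cmpk1 did not pass in any comparison. Umps, which completes UMP from orotate, gave -1.36, -1.31, -1.62, -1.53 and -1.33 in control. It gave -1.89, -1.81, -1.77, -2.02 and -1.67 in N1N2 and -0.87, -1.17, -1.12, -1.09 and -1.28 in N1N2 plus Lrp6. As for Rrm1, the 3 groups did not overlap. Umps fell by 0.40 (SE 0.09, adjusted p = 0.0116) and was then higher by 0.72 (SE 0.09, adjusted p = 0.000433), both whichever array was left out. The first call was lost with median centring and with scaled arrays, and the change within the shared slide, -0.42, did not pass (adjusted p = 0.264). A dimmer second probe moved by -0.41 and 0.54. Against control the difference was 0.32 (SE 0.09, adjusted p = 0.158), and 0.35 with slide as a random block (adjusted p = 0.00595).

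Dhodh, the mitochondrial enzyme that makes orotate, gave -0.29, 0.01, -0.61, -0.16 and 0.03 in control. The values were -0.99, -0.69, -0.59, -0.73 and -0.72 in N1N2 and 0.07, -0.59, 0.21, 0.30 and -0.16 in N1N2 plus Lrp6. Control replicate 3 and N1N2 plus Lrp6 replicate 2 lay at the upper edge of the N1N2 values, so the groups overlapped. Dhodh fell by 0.54 (SE 0.16, adjusted p = 0.0374), and that call held only without control replicate 3 or N1N2 replicate 3 among the 10 single-array omissions (adjusted p up to 0.101). Within the shared slide the change was -0.77, which did not pass (adjusted p = 0.150). Dhodh was higher by 0.71 with the Lrp6 antibody (SE 0.16, adjusted p = 0.00731).

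Cad, the multifunctional enzyme that opens pyrimidine synthesis, averaged 0.08 ± 0.10, 0.11 ± 0.17 and 0.08 ± 0.21 (SD, n = 5 each), a pattern without a detectable shift on a dim probe (mean red signal 308). Some genes that passed had probes about as dim or dimmer, with 312 for Ppat, 226 for Prps2 and 170 for Dck. Cmpk1, which phosphorylates CMP and UMP, averaged 1.99 ± 0.11, 1.90 ± 0.19 and 1.89 ± 0.28. The last step, from UTP to CTP, is catalysed by the products of Ctps and Ctps2, whose values are given with the paralogous pairs below.

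Purine synthesis, the group with 12 genes, had 7 that fell and 8 that rose in the next comparison, with median changes of -0.48 and 0.57. Genes of the first and the last steps on the route to IMP fell, and some of those between did not pass. Ppat, which catalyses the first committed step, gave -2.12, -2.06, -2.45, -2.20 and -2.03 in control. The N1N2 arrays gave -3.02, -2.58, -2.70, -2.92 and -2.73 and the N1N2 plus Lrp6 arrays -1.65, -2.31, -2.05, -2.01 and -2.35. The N1N2 arrays were below all others. Ppat fell by 0.62 (SE 0.13, adjusted p = 0.00653) and was then higher by 0.72 (SE 0.13, adjusted p = 0.00238). The second call was lost when spots marked as outliers by the scanner software were kept (0.53, adjusted p = 0.0661), and the change within the shared slide, -0.68, did not pass (adjusted p = 0.204). Its second probe moved by -0.49 and 0.73.

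Atic, which closes the purine ring with a folate carbon unit, gave -0.56, -0.70, -0.88, -0.89 and -0.59 in control. It gave -1.76, -1.72, -1.46, -1.82 and -1.41 in N1N2 and -0.03, -1.13, -0.67, -0.63 and -0.76 in N1N2 plus Lrp6. Again no N1N2 array reached the other groups, and N1N2 plus Lrp6 replicate 2 came nearest. Atic fell by 0.91 (SE 0.16, adjusted p = 0.00185) and was then higher by 0.99 (SE 0.16, adjusted p = 0.00115). Its change within the shared slide was -1.0, which did not pass (adjusted p = 0.131). Both calls of Ppat and of Atic held whichever single array was left out.

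Between these steps the genes differed. Gart, a trifunctional enzyme whose transformylase step also uses folate, fell by 0.67 (SE 0.20, adjusted p = 0.0415) and rose by 0.62 (SE 0.20, adjusted p = 0.0453). Each Gart call was lost in 8 of 10 single-array omissions. The first was kept only without control replicate 3 or N1N2 replicate 3 and the second only without N1N2 replicate 3 or N1N2 plus Lrp6 replicate 2 (adjusted p up to 0.101 and 0.110). Adsl, adenylosuccinate lyase, lay lower on every N1N2 array than on any control array, but its change of -0.57 did not pass (SE 0.18, adjusted p = 0.0528). The rise of Adsl by 0.55 (SE 0.18, adjusted p = 0.0486) was also kept only without N1N2 replicate 3 or N1N2 plus Lrp6 replicate 2 (adjusted p up to 0.120). For both genes N1N2 plus Lrp6 replicate 2 was the lowest of its group, at -1.21 for Gart and -1.62 for Adsl, inside the N1N2 range.

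Pfas and Paics, which act between Ppat and Adsl in the route, did not pass in any comparison, with changes of 0.00 and -0.08 after Notch blockade and 0.01 and 0.13 with the Lrp6 antibody. Paics had the tightest control values of the group, -2.61 ± 0.02 (SD, n = 5), and a wider spread in N1N2, -2.69 ± 0.29. Ppat (chr5:76913249-76951578, minus strand) and Paics (chr5:76951302-76967509, plus strand) overlap at their 5′ ends in opposite directions, so they share a start region. Their changes after Notch blockade were -0.62 and -0.08, and this difference was not tested. The stretch before the Ppat start is shown with its E2F letters in capitals, at chr5:76951709-76951809 (GRCm38.p6, minus strand), within the limits of Paics on the other strand. The Atic stretch at chr1:71557129-71557155 (plus strand), which ends at the start site, has CACGTG in capitals, and so does the Impdh2 stretch at chr9:108560306-108560351 (plus strand).

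Ppat: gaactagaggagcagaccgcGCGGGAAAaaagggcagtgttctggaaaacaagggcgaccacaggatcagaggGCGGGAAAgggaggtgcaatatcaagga

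Atic: gaggggcgggacctcggggtCACGTGg

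Impdh2: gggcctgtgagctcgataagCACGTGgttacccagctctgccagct

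After IMP the route divides. On the guanine side, Gmps, which makes GMP from XMP, fell by 0.56 (SE 0.14, adjusted p = 0.0206) and rose by 0.59 (SE 0.14, adjusted p = 0.0113). The first call was lost without control replicate 5 or N1N2 replicate 2 or 4 (adjusted p up to 0.0595). Its 2 other probes were well above background on 4 of the control arrays, on 3 or 2 of the N1N2 arrays and on 1 N1N2 plus Lrp6 array. Their single changes are not given here. With the mean of all probes of Gmps the rise with the Lrp6 antibody did not pass (0.18, adjusted p = 0.0844). On the adenine side, Adss, which makes adenylosuccinate from IMP, lay lower on every N1N2 array than on any control array, but its change of -0.21 did not pass (SE 0.10, adjusted p = 0.185), nor did the change of 0.13 with the Lrp6 antibody.

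**Figure D3:**
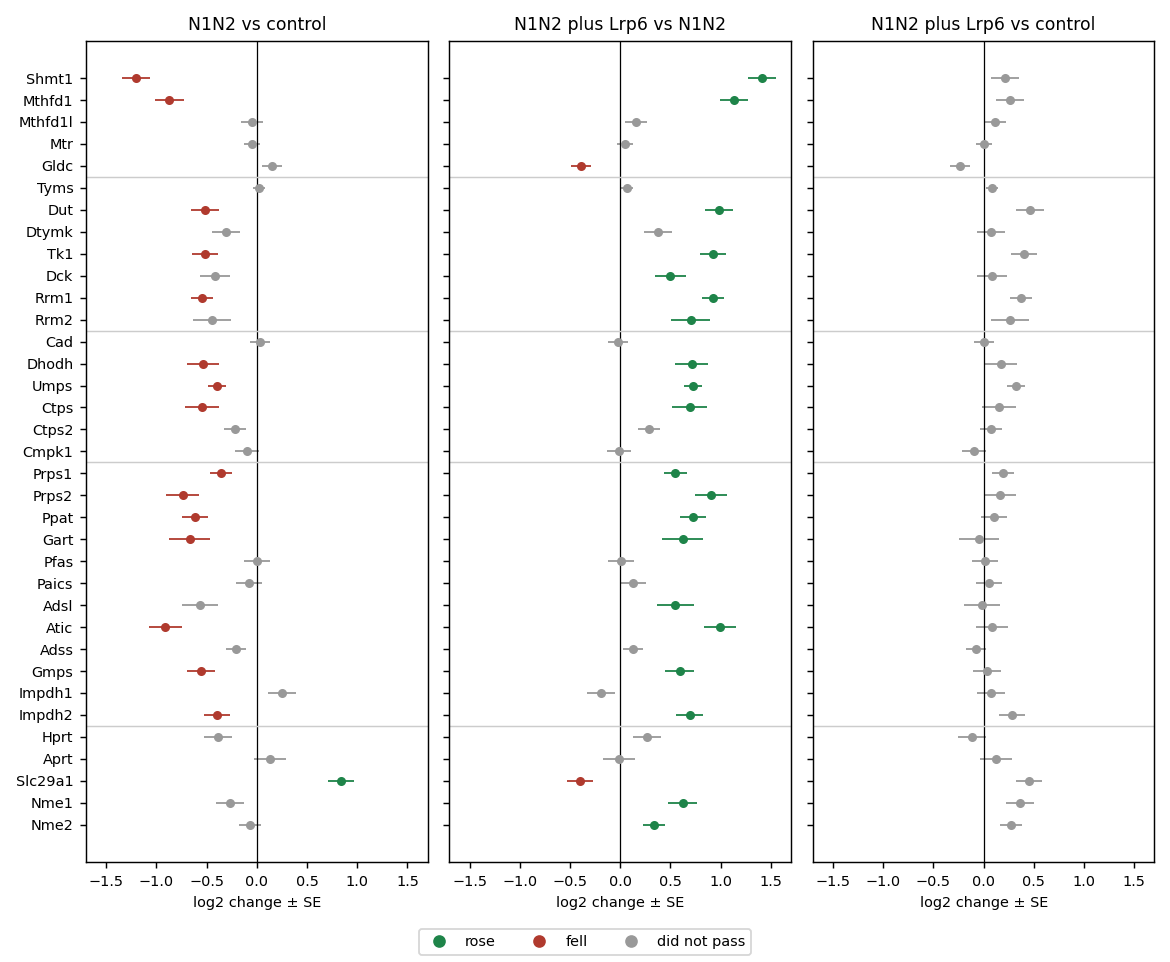
Each panel is 1 comparison, each row 1 of the 35 genes in order of role (grey lines between roles), with the log2 change on the horizontal axis as a point and its SE as a bar; green points rose, red points fell and grey points did not pass at an adjusted p of 0.05. In the first panel 15 points are red and 1 green, in the second 20 are green and 2 red, and in the third all are grey.

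Salvage, transport and the nucleoside diphosphate kinases held the 1 gene that rose after Notch blockade. Slc29a1 encodes ENT1, an equilibrative transporter that carries nucleosides across the plasma membrane, and gave -1.16, -1.11, -1.45, -1.0 and -1.13 in control. It gave -0.47, -0.40, -0.36, -0.18 and -0.23 in N1N2 and -0.84, -0.57, -0.31, -0.73 and -1.17 in N1N2 plus Lrp6. Every N1N2 array was above every control array, and the N1N2 plus Lrp6 arrays spread across both. Slc29a1 rose by 0.84 (SE 0.13, adjusted p = 0.000841), whichever array was left out. The call was lost with median centring and with slide as a fixed block, and the change within the shared slide, 0.63, did not pass (adjusted p = 0.147).

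From N1N2 to N1N2 plus Lrp6 Slc29a1 fell by 0.40 (SE 0.13, adjusted p = 0.0499), at the edge of the threshold. This call was lost without N1N2 replicate 2, 3, 4 or 5 or N1N2 plus Lrp6 replicate 1, 4 or 5 (adjusted p up to 0.124). It remained 0.45 above control (adjusted p = 0.174), and with slide as a random block this difference passed (0.52, adjusted p = 0.00554).

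Hprt, which recovers hypoxanthine and guanine, gave -0.12, -0.10, -0.36, -0.19 and -0.04 in control. Its N1N2 values were -0.80, -0.30, -0.39, -0.66 and -0.60 and its N1N2 plus Lrp6 values 0.05, -0.81, -0.37, -0.19 and -0.08. The groups overlapped, N1N2 plus Lrp6 replicate 2 was the lowest array of all, and the changes of -0.39 (adjusted p = 0.0881) and 0.27 (adjusted p = 0.227) did not pass. The first passed in limma with only the arrays of the compared groups (adjusted p = 0.0236). It also passed with slide as a random block (-0.38, adjusted p = 0.0463). Aprt, which recovers adenine, averaged 0.32 ± 0.18, 0.45 ± 0.27 and 0.44 ± 0.35 (SD, n = 5 each) and did not pass either.

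For 5 pairs of related enzymes, the difference between the changes of both genes was tested with an exact two-sided permutation test over the arrays (252 splits, smallest possible p 0.0079), adjusted over 15 tests. Probe effects that are the same in both groups cancel in such a difference, but unequal responses of 2 probes do not. The 2 probes of Shmt1 changed by -1.20 and -0.39, then by 1.41 and 0.38. Those of Impdh2 were closer, at -0.40 and -0.48, then 0.69 and 0.79. With 1 probe per gene in the test, a difference between genes and one between probes cannot be told apart. Mthfd1 and Mthfd1l, cytosolic and mitochondrial, differed most. After Notch blockade they changed by -0.87 and -0.05 (difference -0.82, SE 0.12, exact p = 0.0079, adjusted 0.024). With the Lrp6 antibody they changed by 1.13 and 0.16 (difference 0.97, SE 0.17, exact p = 0.0079, adjusted 0.024). Both p-values are the smallest the design allows.

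Impdh1 and Impdh2 make XMP from IMP, the step that commits to guanine nucleotides, and they moved apart. Impdh1 gave -1.65, -1.59, -1.70, -1.57 and -1.55 in control, -1.75, -1.29, -0.94, -1.45 and -1.35 in N1N2 and -1.11, -1.76, -1.52, -1.61 and -1.72 in N1N2 plus Lrp6. Impdh2 gave -1.11, -1.29, -1.63, -1.47 and -1.21 in control, -1.84, -1.79, -1.69, -1.87 and -1.51 in N1N2 and -0.72, -1.10, -1.06, -0.97 and -1.43 in N1N2 plus Lrp6. The N1N2 arrays were mostly high for Impdh1 and low for Impdh2. Impdh1 changed by 0.25 (SE 0.14, adjusted p = 0.256), which passed with scaled arrays (0.40, adjusted p = 0.0379), and by -0.19 (adjusted p = 0.409).

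Impdh2 fell by 0.40 (SE 0.13, adjusted p = 0.0496), a call kept only without control replicate 3 or N1N2 replicate 5 among the single-array omissions (adjusted p up to 0.122), and rose by 0.69 (SE 0.13, adjusted p = 0.00267). A second Impdh2 probe moved by -0.48 and 0.79. The difference Impdh1 minus Impdh2 was 0.66 after Notch blockade (SE 0.15, exact p = 0.0079, adjusted 0.024) and -0.87 with the Lrp6 antibody (SE 0.14, exact p = 0.0079, adjusted 0.024).

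Prps1 and Prps2 make the activated ribose phosphate on which purines are built. Prps2 gave -0.76, -0.91, -1.28, -0.82 and -0.62 in control, -1.73, -1.56, -1.50, -1.70 and -1.59 in N1N2 and -0.11, -1.16, -0.90, -0.81 and -0.61 in N1N2 plus Lrp6. Prps1 gave -1.89, -2.16, -2.30, -2.28 and -2.10, then -2.43, -2.53, -2.41, -2.86 and -2.31, then -1.85, -2.04, -1.99, -1.79 and -2.11 in the same order. In both genes the N1N2 arrays lay below all arrays of the other groups. Prps2 fell by 0.74 (SE 0.16, adjusted p = 0.00819) and rose by 0.90 (SE 0.16, adjusted p = 0.00220), whichever array was left out.

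Prps1 fell by 0.36 (SE 0.11, adjusted p = 0.0395) and rose by 0.55 (SE 0.11, adjusted p = 0.00368). Its first call was lost without control replicate 1, 2 or 5 or N1N2 replicate 2 or 4 (adjusted p up to 0.0997). The difference Prps1 minus Prps2 was 0.38 after Notch blockade (SE 0.12, exact p = 0.024, adjusted 0.051) and -0.35 with the Lrp6 antibody (SE 0.18, exact p = 0.11, adjusted 0.17), so neither passed. The first passed the exact test without N1N2 replicate 4 (0.44, adjusted 0.04).

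Ctps and Ctps2 both convert UTP to CTP. Ctps gave -2.59, -2.53, -2.97, -2.46 and -2.21 in control, -3.53, -2.94, -2.92, -2.98 and -3.11 in N1N2 and -1.87, -2.74, -2.36, -2.46 and -2.60 in N1N2 plus Lrp6. Ctps2 gave -0.78, -0.81, -1.03, -1.05 and -0.71, then -1.33, -0.93, -0.98, -1.13 and -1.08, then -0.49, -0.99, -0.93, -0.73 and -0.88. N1N2 plus Lrp6 lay above N1N2 on every array for Ctps, while the groups overlapped for Ctps2. Ctps fell by 0.55 (SE 0.17, adjusted p = 0.0471), a call kept only without control replicate 3 (adjusted p up to 0.128), and rose by 0.69 (SE 0.17, adjusted p = 0.0117).

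Ctps2 changed by -0.22 (adjusted p = 0.218) and 0.29 (adjusted p = 0.0802). The difference Ctps minus Ctps2 was -0.33 after Notch blockade (SE 0.11, exact p = 0.024, adjusted 0.051) and 0.40 with the Lrp6 antibody (SE 0.10, exact p = 0.0079, adjusted 0.024). The first, which did not pass, passed the exact test with median centring (-0.33, adjusted 0.04) and without control replicate 3 (-0.40, adjusted 0.02).

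Nme1 and Nme2 are nucleoside diphosphate kinases, which make triphosphates from diphosphates, and their genes lie close together on chromosome 11. Nme1 gave -0.66, -1.02, -1.03, -1.25 and -0.80 in control, -1.15, -1.55, -0.97, -1.55 and -0.88 in N1N2 and -0.33, -0.63, -0.62, -0.73 and -0.67 in N1N2 plus Lrp6. Nme2 gave -0.37, -0.85, -0.71, -0.94 and -0.67, then -0.60, -0.96, -0.91, -0.89 and -0.52, then -0.40, -0.36, -0.49, -0.45 and -0.48. In both, N1N2 plus Lrp6 lay above N1N2 without overlap, and control overlapped N1N2. The changes after Notch blockade, -0.27 (adjusted p = 0.263) and -0.07 (adjusted p = 0.739), did not pass.

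With the Lrp6 antibody Nme1 rose by 0.62 (SE 0.14, adjusted p = 0.00875) and Nme2 by 0.34 (SE 0.11, adjusted p = 0.0398). The Nme2 call was lost in 8 of 10 single-array omissions, those of N1N2 replicates 2, 3 and 4 and of each N1N2 plus Lrp6 array (adjusted p up to 0.106). The difference Nme1 minus Nme2 was -0.20 (SE 0.12, exact p = 0.13, adjusted 0.17) and 0.28 (SE 0.13, exact p = 0.071, adjusted 0.13), so neither passed. Without N1N2 replicate 3 both passed the exact test (-0.29 and 0.38, each adjusted 0.017). A second probe of each gene, well above background on all arrays, changed by -0.22 and 0.46 for Nme1 and by -0.21 and 0.33 for Nme2. After Notch blockade those probes thus lay close together, and their difference was not tested. With slide as a random block, Nme1 (0.38, adjusted p = 0.0311), Nme2 (0.28, adjusted p = 0.0363) and Impdh2 (0.34, adjusted p = 0.0301) also passed above control. That fit cannot separate slide from treatment here. In the direct comparison of N1N2 plus Lrp6 with control, no pair differed after adjustment, the smallest adjusted p being 0.16 for Impdh1 and Impdh2.

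**Figure D4:**
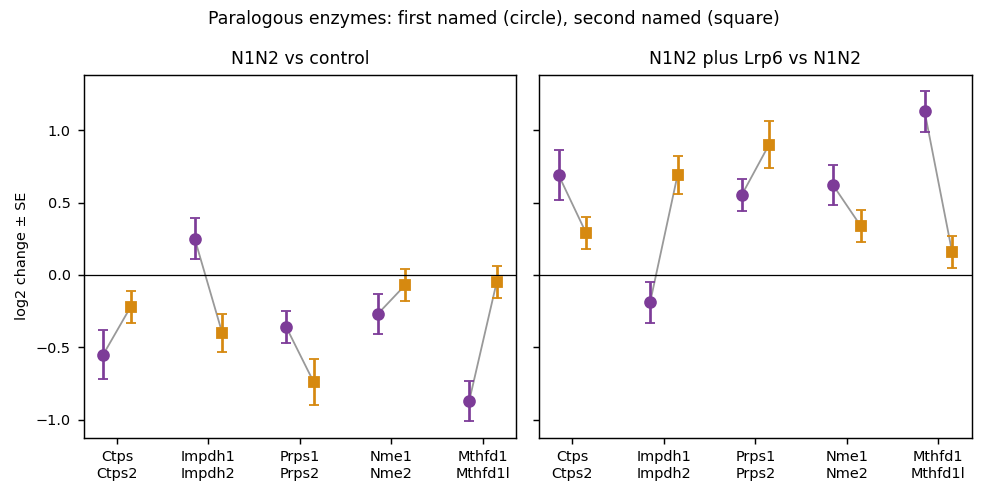
For each pair of related enzymes, the circle is the first-named and the square the second-named gene, with the log2 change on the vertical axis and its SE as a bar, for N1N2 against control on the left and N1N2 plus Lrp6 against N1N2 on the right. The lines are steepest for Impdh1 and Impdh2 (differences of 0.66 and -0.87) and for Mthfd1 and Mthfd1l (-0.82 and 0.97).

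Other genes of the same pathways were read from the same fit. Of 31 further folate and one-carbon genes tested, 3 rose and 3 fell after Notch blockade (median -0.05), and 5 rose and 2 fell with the Lrp6 antibody (median 0.05). Over all features 6.57% rose and 5.15% fell in the first and 9.45% and 7.26% in the second comparison. Gcsh, the carrier protein of the glycine cleavage system, fell by 0.61 and then rose by 0.77. Ahcy, which clears S-adenosylhomocysteine, fell by 0.69, whereas Mat2a, which makes S-adenosylmethionine, rose by 0.55 and then fell by 0.47. Shmt2, the mitochondrial counterpart of Shmt1, changed by -0.26 (adjusted p = 0.0946) and rose by 0.41 with the Lrp6 antibody (adjusted p = 0.00889).

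Of 52 further purine and pyrimidine genes, 2 rose and 4 fell after Notch blockade (median -0.09), and 10 rose and 2 fell with the Lrp6 antibody (median 0.10), beside the same 6.57% and 5.15% and then 9.45% and 7.26% of all features. Dctpp1 and Dctd, which remove or deaminate deoxycytidine nucleotides, fell by 0.65 and 0.50 and then rose by 1.07 and 0.68. Adk and Ada, which phosphorylate and deaminate adenosine, fell by 0.72 and 0.94, and Ada did not pass in the next comparison (0.18, adjusted p = 0.656). Ak6 and Nme4, both nucleotide kinases, rose by 0.48 and 0.73 with the Lrp6 antibody.

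Among 19 transcription factors known to act on genes of growth and the S phase, 1 rose and 3 fell after Notch blockade (median -0.25), and 6 rose and 1 fell with the Lrp6 antibody (median 0.22), where 6.57% and 5.15% and then 9.45% and 7.26% of all features rose and fell. E2f8 fell by 0.71 (adjusted p = 0.0120) and rose by 1.09 (adjusted p = 0.000865), E2f1 fell by 0.39 and rose by 0.70, and Foxm1 fell by 0.29. Mybl2 rose by 0.44 with the Lrp6 antibody. Myc changed by -0.56 after Notch blockade, which did not pass (adjusted p = 0.0794), and rose by 0.72 with the Lrp6 antibody (adjusted p = 0.0219). Atf4, a factor of the amino acid response that is known to act on one-carbon genes, went the other way, rising by 0.71 (adjusted p = 6.76e-05) and then falling by 0.51 (adjusted p = 0.00142).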

How the data were processed

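Crypt RNA of 15 samples (Cy5, red) was hybridised against a common reference (Cy3, green) on 2-colour Agilent arrays, per the labels' protocols. Per the file headers, the scanner software was Feature Extraction 11.0.1.1 and probe coordinates are those of mm9. The deposited scanner files hold raw median intensities with local backgrounds, the software's corrected log10 ratio (red to green) and quality flags. A second deposited table holds the authors' log2 values, made with R 3.0.0 and limma 3.6.7 per the submitters' processing notes. Its columns correlated at 0.99998 or more with the values computed here (slopes 0.999 to 1), so its scale is log2 of crypt over reference, with column medians of 0.0144 to 0.0286.

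With limma 3.58.1 in R 4.3.3 (tables read with data.table, version 1.17.8), flagged spots (306 to 642 of 44397 per array) were left out. Backgrounds were corrected by normexp (offset 50) and log2 ratios normalized by loess within arrays. Leaving flagged spots out before normexp follows an earlier processing of these data. Spots of a probe were averaged, and a probe was kept when well above background in red on 4 of 5 arrays of at least 1 group (28486 of 39429). Accessions were named from RefSeq tables (26586 probes named, 12843 not), and the brightest probe stood for each of the 3837 genes with several, giving 23938 features, 16058 of them named, of which 371 lacked a value on some array (no nucleotide gene did). Array correlations within groups were 0.918 to 0.993, and the number of arrays limits the precision. The 3 groups entered 1 limma fit (lmFit, eBayes), tested on simulated data. Alternatives were other background, normalization, filter, probe and slide settings and omission of each array, and slide as a block over the compared groups only was added after the data were seen.

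The 35 genes, the further lists and the markers were chosen with earlier results of these data known, so their counts are descriptions. Values on every array are given for the 2 genes per role with the smallest adjusted p in each of the first 2 comparisons and for the paralogous pairs, and of each further list up to 4 genes with the smallest adjusted p per comparison are named, except 1 that is not reported here. Tyms and Myc were added after their values were seen. Replicate numbers recur in all 3 groups, but the labels name no pairing and same-numbered arrays did not deviate together in every pair, so no pairing was used. Probe gene names and RefSeq coordinates of GRCm38.p6 were not mixed with mm9 coordinates.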

Additional observations from a re-analysis of the deposited data

Results flagged for a closer look

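Single arrays stood apart from the other 4 of their group in 4 of 105 sets of values (35 genes in 3 groups), judged by the gap to the nearest array as a share of the whole range (Dixon's 95% critical value for 5 samples, 0.71). Chance alone gives about 1 in 20, and this count is not above that. Control replicate 3 was low for Dtymk, at -1.34 with the next control array at -0.81 (gap over range 0.737), and for Tk1, at -1.22 with the next at -0.74 (0.829). For Tk1, N1N2 replicate 1 was also low in its group, at -1.62 with the next at -1.29 (0.784). For Nme1, N1N2 plus Lrp6 replicate 1 was high, at -0.33 with the next at -0.62 (0.718). Both genes with a low control replicate 3 belong to thymidylate synthesis and salvage, and over all 35 genes the mean of that array was -1.19, the lowest of the control group. Without control replicate 3, 19 of the 35 genes fell after Notch blockade in place of 15, and 1298 of all features in place of 1233.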

How the results depend on the processing

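No result changed direction while passing in both settings, and changes that switched sign without passing in either are not counted as reversals. For N1N2 against control, the numbers that rose and fell were 0 and 6 with median centring in place of loess, 2 and 7 with arrays scaled to each other, and 1 and 9 with the replicate block (which ended the calls of Dut, Dhodh, Ctps, Prps1, Gart and Impdh2). With the Feature Extraction log ratios the numbers were 1 and 10, without the calls of Dhodh, Ctps, Prps1, Gart and Impdh2. Of 15 settings other than array omissions, 11 ended the Impdh2 call, among them the authors' deposited values (adjusted p = 0.0504). With slide as a fixed block the numbers were 0 and 1, over the arrays of the compared groups only 0 and 2 (Shmt1 and Atic), and on the slide that holds both groups 0 and 0. The median change was -0.25 with flagged spots kept, -0.56 with median centring and -0.23 with scaled arrays. For N1N2 plus Lrp6 against N1N2, 1 fell with flagged spots kept, with the Feature Extraction log ratios, with no filter, with the compared groups only and with the replicate block (which also gave 17 that rose), and 0 with median centring. The median was 0.71 with median centring and 0.34 with scaled arrays. Against control, slide as a random block gave 8 that rose and 1 that fell. The fit with the replicate block called none against control. Same-numbered arrays deviated together at correlations from -0.0113 to 0.626 for N1N2 and control and at negative values for most other pairs. The labels do not say whether the numbers pair samples, and these correlations cannot decide it.

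Leaving out single arrays of the compared groups gave 7 to 19 that fell and 1 to 1 that rose for N1N2 against control, with medians of -0.44 to -0.32. For N1N2 plus Lrp6 against N1N2 it gave 16 to 22 that rose, 0 to 2 that fell and medians of 0.42 to 0.58, and against control 0 to 1 that rose, 0 to 0 that fell and medians of 0.02 to 0.16. Of 16 calls in the first comparison 8 held whichever array was left out, and of 22 in the second 16 did.

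Over all features, 1573 rose and 1233 fell in N1N2 against control, against 573 and 679 with median centring, 1729 and 724 with flagged spots kept, and 109 called in all with slide as a fixed block (261 over the compared groups only, 3 on the shared slide). For N1N2 plus Lrp6 against N1N2, 2261 rose and 1738 fell, against 2634 and 780 with median centring and 1292 and 1043 with flagged spots kept. Slide as a random block called 7041 in all there, against 3999. Against control 53 rose and 37 fell, against 42 and 6 with flagged spots kept, 17 and 13 with median centring, 43 and 16 with scaled arrays, 55 and 87 with the Feature Extraction log ratios, and in all 2916 with slide as a random block, 50 with the compared groups only and 44 with the replicate block, against 90. Without single arrays of the compared groups the counts in all were 1546 to 2812, 2515 to 4742 and 26 to 349 for the 3 comparisons. The cause of these differences was not tested.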
